A study of Mus musculus with 6 samples.

Results

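Cadherins are calcium-dependent adhesion proteins of the cell surface, and their genes were followed here through the passaging of mouse embryonic fibroblasts (MEFs). Members were the rows whose symbol is Cdh followed by a number or begins with Pcdh. They were 92 of the 21988 genes in the table. They comprised 5 type I and 13 type II classical cadherins, 5 atypical numbered cadherins, 12 protocadherins outside the clusters and 57 clustered protocadherins, 13 of them in the Pcdha, 22 in the Pcdhb and 22 in the Pcdhg cluster.

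Classical cadherins bind the same or a related cadherin on a neighbouring cell through extracellular repeats and hold the actin cytoskeleton through catenins bound to their tails. Most cadherins of fibroblasts are of the mesenchymal kind, N-cadherin (Cdh2) and OB-cadherin (Cdh11), while E-cadherin (Cdh1) marks epithelia. Protocadherins have longer ectodomains and tails that do not bind beta-catenin. The clustered genes lie in tandem, each Pcdha and Pcdhg variable exon has a promoter of its own, and neurons combine their products into cell-surface identity codes.

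The cells came from C57BL/6 embryos of a pregnancy of 13.5 days and were grown in serum-containing medium. They carried no added allele and received no agent in any group, per the labels. Cells were harvested at population doubling 2 (PD2), 8 (PD8) or 14 (PD14), a population doubling being a doubling of cell number summed over passages, and each group had 2 libraries. Replicate 1 of every group was a strand-specific library depleted of ribosomal RNA and replicate 2 a poly(A)-enriched library, so replicate number and library method are the same thing. Nothing in the labels says that libraries came from separate cultures. Each group had a single library of each method, and the steady difference between methods was taken out in the fit. The spread behind the p-values is thus only the disagreement of the 2 methods on the group differences, which may be technical. The title of the series places it in senescence, the lasting growth arrest of passaged cells.

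Values are TPM, a measure of transcript abundance scaled for transcript length and to a common sum, and are given below in the order PD2, PD8, PD14 for the rRNA-depleted and then for the poly(A) libraries. They carry no read numbers, so depth is unknown. Between 12554 and 12827 genes reached a TPM of 1 in a library. Testing with limma was limited to genes that reached a TPM of 1 in 2 or more libraries. It was run on log2(TPM + 1), with library method as a block. This scale understates the change of low genes. Errors written ± are standard errors of fitted log2 differences, and a gene is said to have passed, risen or fallen where its Benjamini-Hochberg adjusted p over all 13332 genes tested was under 0.05. Fibroblast markers were abundant, Col1a1 lying between 3068 and 7460 TPM. Of the markers of other cells, Tie1, Cldn5, Esrp1 and Myf5 were at 0 in all 6 libraries, and Pecam1 reached at most 0.386, Epcam 0.426 and Myod1 0.277 TPM. Others of the same lists were well above 0: Ncam1 reached 149 TPM, Acta1 48.9, Des 48.5, Krt19 28.5 and Erg 16.2. All 10 macrophage and leukocyte markers passed the filter.

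Of the 92 members, 61 passed the filter on low values, 31 did not, and Pcdhb1 was at 0 in all 6 libraries. Between PD2 and PD14, 9 members passed the test. The T-cadherin gene Cdh13, the type II gene Cdh18, the protocadherins Pcdh7 and Pcdh17 and the clustered genes Pcdhga7 and Pcdhgb1 rose, and Cdh10 fell. Cdh4 and Pcdh20, both lower, reached 1 TPM in the PD2 libraries alone. They entered the test only through the group where they were high, so their calls are not independent of the filter and their values are given as a description. The 9 were 14.8% of the tested members, beside 11.2% of all genes tested (6.41% higher and 4.77% lower), a share near the background. Leaving out the 3 members that entered through a single group (Cdh4, Pcdh20 and the uncalled Pcdhb9), 7 of 58 passed, or 12.1%. The median fitted log2 difference was 0.39 over the 61 tested members and 0.06 over all genes tested. It was -0.47 over the 10 tested classical cadherins and 0.49 over the 39 tested clustered genes.

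Those calls rest on few libraries. The main fit has 2 residual degrees of freedom, and a fit with a library left out has fewer. None of the 9 stayed called when a PD8 or PD14 library was left out. Without a PD2 library only some did, and members outside the 9 could be called. With library method dropped from the model, 0 members were called. With a library left out, fitted differences were 0.93 to 1.42 for Cdh18, 0.71 to 1.19 for Pcdhga7 and 0.60 to 1.01 for Pcdh7. They were 1.29 to 2.21 for Pcdh17, 0.99 to 1.29 for Cdh13, 2.59 to 4.98 for Pcdhgb1 and -1.86 to -1.16 for Cdh10. Of the 8 other settings, Cdh13 was called in 7, Cdh10 and Pcdh17 in 6, Cdh18, Pcdh7 and Pcdhgb1 in 5 and Pcdhga7 in 4. In the 8 other settings and the leave-one-out fits that could be run, all 9 kept their sign. In bulk samples, fewer cells of a type and less RNA per cell cannot be told apart.

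**Figure D1:**
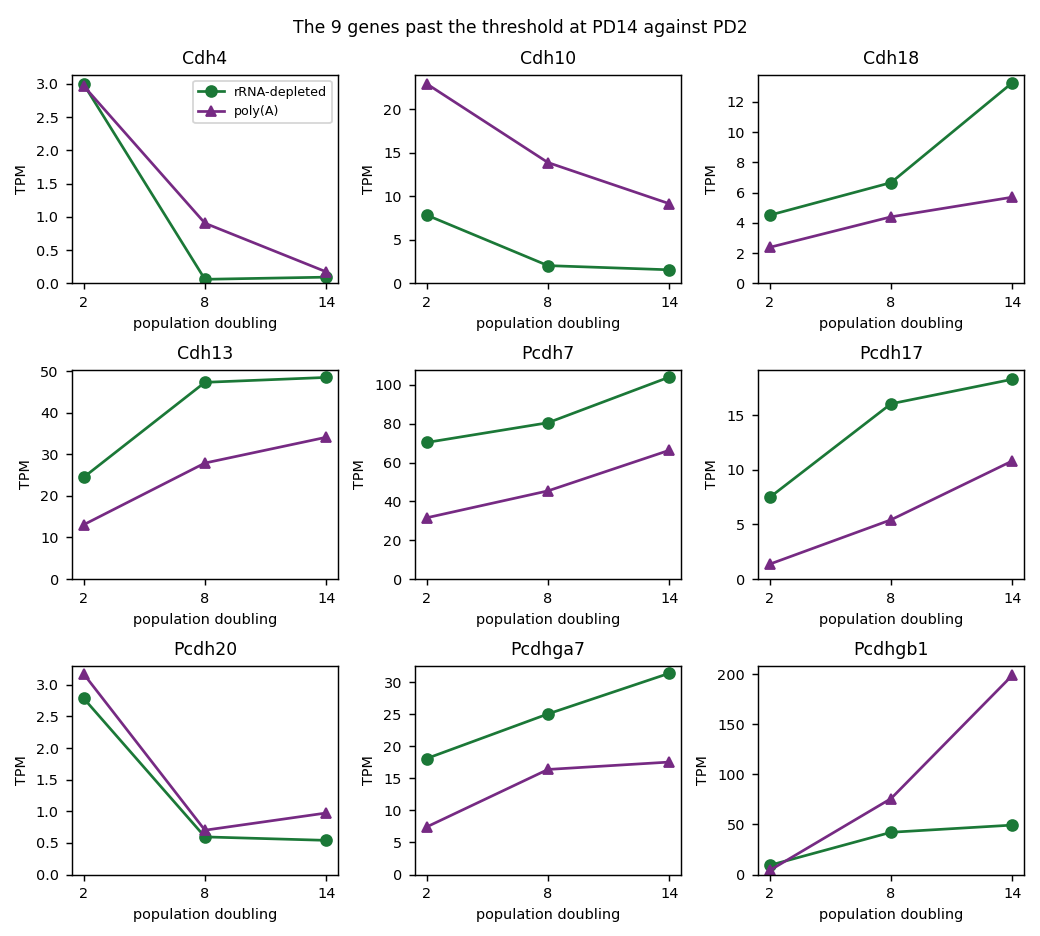
TPM (vertical axis, from 0) of the 9 genes past the threshold against population doubling (2, 8 and 14), 1 point per library, with lines joining libraries of the same method. Cdh4 and Pcdh20 passed the filter through PD2 alone. Each gene's PD14 libraries lie on the same side of its PD2 libraries in both methods, and Pcdhgb1 reaches 199 TPM in the poly(A) PD14 library.

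Among type I classical cadherins, 3 passed the filter, none rose, and the 1 called lower, Cdh4, entered through PD2 alone. Cdh2 (chromosome 18, 16588877 to 16809246, mm10) was at 98.6, 127 and 139 TPM in the rRNA-depleted libraries and at 97.3, 119 and 112 TPM in the poly(A) libraries. Both PD14 libraries lay above both PD2 libraries, but the fitted difference of 0.35 ± 0.13 did not pass (adjusted p = 0.139). It was the second most abundant member by mean TPM.

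Cdh3, P-cadherin, lies 46053 bases upstream of Cdh1 on chromosome 8. It was at 54.1, 30.6 and 38.0 TPM in the rRNA-depleted libraries and at 60.9, 39.3 and 34.2 TPM in the poly(A) libraries. Every later library lay below both PD2 libraries, and the PD14 difference of -0.66 ± 0.17 had an adjusted p of 0.0667. Cdh1 itself stayed below the filter, at 0.226, 0.772 and 0.684 TPM and at 0.243, 0.0386 and 0.0202 TPM, higher at PD14 in the former and lower in the latter.

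Cdh4, R-cadherin (chromosome 2, 179442431 to 179899373), was at 2.99, 0.0627 and 0.0950 TPM and at 2.97, 0.906 and 0.175 TPM. The 2 PD2 libraries were alike, and every later library lay below them. The fitted log2 difference between PD14 and PD2 was -1.81 ± 0.33, given without its p because PD2 alone brought the gene past the filter. Cdh15, M-cadherin of muscle, reached at most 0.447 TPM.

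Type II genes were led by Cdh11 (chromosome 8, 102632095 to 102785642), the most abundant of the 92 members in every library. It was at 600.5, 567 and 893 TPM in the rRNA-depleted libraries and at 427, 369 and 400.3 TPM in the poly(A) libraries. The 2 methods did not overlap, and PD14 was highest in one method but not in the other. The fitted change of 0.24 ± 0.20 did not pass (adjusted p = 0.441). The summed TPM of 8 cartilage and bone markers also differed by method: 210.4, 484 and 725 in the rRNA-depleted and 34.6, 38.0 and 33.2 in the poly(A) libraries. Their part in the Cdh11 values was not tested.

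A further pair of type II genes, both expressed mainly in neural tissue, passed in opposite directions. Cdh18 (chromosome 15, 22549022 to 23474418) was at 4.51, 6.66 and 13.3 TPM and at 2.39, 4.40 and 5.70 TPM, rising in order in both methods. Its change was 1.18 ± 0.25 (adjusted p = 0.0448). Cdh10 (chromosome 15, 18818947 to 19014236) was at 7.85, 2.05 and 1.57 TPM and at 22.9, 13.9 and 9.16 TPM. It fell by 1.51 on the log2 scale, with a standard error of 0.28 (adjusted p = 0.0360), and each poly(A) library lay above all 3 rRNA-depleted ones.

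The other tested type II genes did not pass. Cdh6, K-cadherin, was at 12.8, 13.3 and 17.2 TPM in the rRNA-depleted libraries and at 8.63, 3.88 and 3.89 TPM in the poly(A) libraries, higher at PD14 in the former and lower in the latter. Cdh19, known from Schwann cell precursors, was at 4.95, 1.34 and 2.50 TPM and at 2.15, 1.06 and 0.716 TPM (-0.82 ± 0.31, adjusted p = 0.149). Cdh24 was at 5.85, 2.87 and 3.59 TPM and at 6.04, 4.03 and 2.42 TPM (-0.81 ± 0.28, adjusted p = 0.123). Cdh8 was at 1.72, 0.480 and 1.08 TPM and at 0.474, 0.324 and 0.839 TPM. Cdh5, VE-cadherin of endothelium, reached at most 0.182 TPM.

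Over the 18 classical cadherins, tested or not, 12 were lower at PD8 than at PD2 in both methods, against 28.4% of genes above 0 in a library. At PD14, 8 were lower and 4 higher than at PD2 in both methods, beside 27.4% and 33.3% of those genes. The 8 classical cadherins below the filter stayed under 1 TPM, so their direction rests on values near 0. Among the 10 tested, 7 were lower at PD8 in both methods, beside 4222 of the 13332 genes tested. At PD14, 5 of the 10 were lower and 2 higher, beside 4109 and 5172 of the genes tested. Markers of other cell types moved over the same span. The summed TPM of 10 skeletal muscle markers was 49.4, 12.6 and 5.61 after rRNA depletion and 104, 33.1 and 12.5 after poly(A) enrichment, with Des, Acta1 and Tnnt3 falling and Myh3 called lower after passing the filter through PD2 alone. The sum of 12 epithelial markers was 23.7, 10.9 and 5.51 and then 43.7, 8.74 and 2.82, with Krt19 falling and Krt18 called lower after passing the filter through PD2 alone. For 13 neural and glial markers the sums were 283, 199.7 and 239, and then 350.2, 268 and 224, with 2 of 9 tested falling and 1 rising. Endothelial markers summed to 30.5, 23.7 and 26.4 and then 22.7, 18.7 and 15.3, with 1 of 6 tested (Kdr) falling. The 10 macrophage and leukocyte markers went opposite ways by method, at 154, 27.0 and 35.4 after rRNA depletion and at 412, 718 and 672 after poly(A) enrichment. Of these 10, 0 passed (3 at an unadjusted p under 0.05 by limma, beside 32% of all genes tested). The part of these cells in the values of Cdh3, Cdh4, Cdh10, Cdh19 and Pcdh20 was not tested.

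Of the atypical cadherins 3 passed the filter, and each was higher at PD14 than at PD2 in both methods. Cdh13 (chromosome 8, 118283733 to 119324921) encodes T-cadherin, which has a lipid anchor in place of a cytoplasmic tail and binds adiponectin and low-density lipoprotein. It was at 24.5, 47.3 and 48.5 TPM and at 13.1, 27.9 and 34.1 TPM. From PD2 to PD14 the level rose 1.98-fold in the rRNA-depleted and 2.61-fold in the poly(A) libraries. The fitted change was 1.14 ± 0.16 (adjusted p = 0.0244). Most of the difference was already there at PD8, where 0.98 was fitted against PD2 (adjusted p = 0.0869).

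Cdh17, LI-cadherin of the intestine, was at 2.22, 7.18 and 7.26 TPM and at 0.801, 2.86 and 1.30 TPM. Its PD14 difference was 0.86 ± 0.32 (adjusted p = 0.145). Cdh26 was at 0.938, 1.25 and 2.12 TPM and at 1.33, 2.26 and 3.49 TPM, higher at each step in both methods, with a difference of 0.82 ± 0.25 that did not pass (adjusted p = 0.0973). Cdh16, of kidney, and Cdh23, which forms hair-cell tip links with Pcdh15, stayed under 1 TPM.

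**Figure D2:**
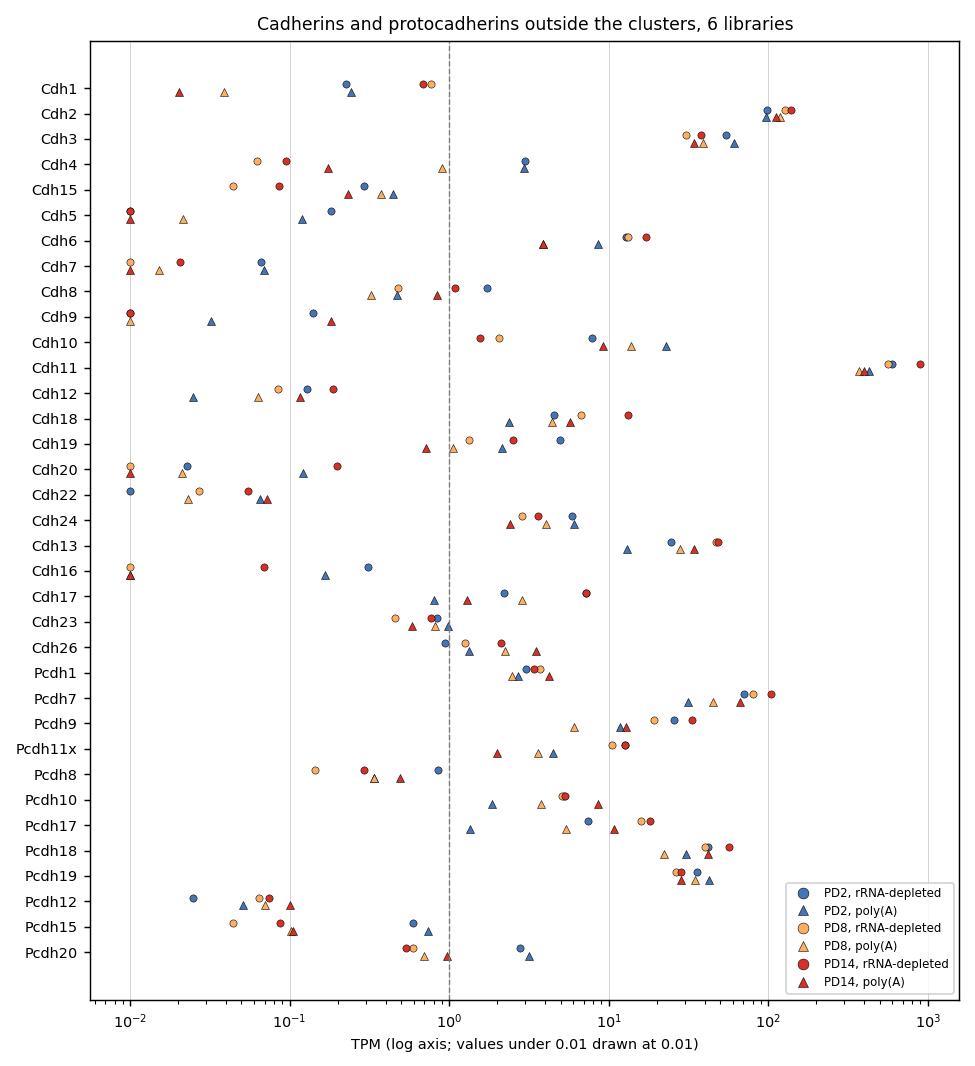
TPM (log axis) of the 35 members outside the clusters, 1 marker per library: circles for rRNA-depleted, triangles for poly(A), coloured by population doubling, with a dashed line at 1 TPM. Cdh11, Cdh2 and Pcdh7 have the highest means, and 13 of the 35 genes did not pass the filter.

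Non-clustered protocadherins of the delta-1 kind bind protein phosphatase 1 through a conserved motif in their tails. Pcdh7 (chromosome 5, 57717967 to 58133230) was the most abundant of them, at 70.3, 80.5 and 104 TPM and at 31.5, 45.4 and 66.3 TPM. It was higher at each step in both methods and rose by 0.80 ± 0.16 (adjusted p = 0.0414). Its annotation overlaps 4932441J04Rik on the opposite strand over 2235 exonic bases, and the labels call only the rRNA-depleted libraries strand-specific, so reads of the pair could not be told apart in the poly(A) libraries if these kept no strand.

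The other delta-1 genes did not pass. Pcdh9 was at 25.5, 19.2 and 33.4 TPM and at 11.9, 6.05 and 12.9 TPM, lowest at PD8 in both methods. Pcdh11x was at 12.6, 10.5 and 12.7 TPM and at 4.51, 3.60 and 1.99 TPM, and Pcdh1 lay between 2.49 and 4.24 TPM in all 6 libraries.

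Delta-2 protocadherins recruit the WAVE actin-regulatory complex. Pcdh17 (chromosome 14, 84443563 to 84539002) was at 7.47, 16.0 and 18.3 TPM and at 1.36, 5.42 and 10.8 TPM. It rose 2.45-fold in the rRNA-depleted and 7.94-fold in the poly(A) libraries. The fitted change was 1.75 ± 0.32 (adjusted p = 0.0353). Pcdh20 (chromosome 14, 88464743 to 88471396), which belongs to neither delta group, was at 2.79, 0.595 and 0.541 TPM and at 3.17, 0.701 and 0.973 TPM, all later libraries lying below both PD2 libraries. The fitted difference was -1.19 ± 0.26, again for a gene that passed the filter through PD2 alone.

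These genes lie on the same chromosome and differed between PD2 and PD14 in opposite directions, so the 250 bases ahead of each RefSeq start are shown, with every CG dinucleotide in capitals (GRCm38.p6, each 5′ to 3′ on the gene's strand). The Pcdh17 window is chr14:84443313-84443562 on the plus strand, and that of Pcdh20 is chr14:88471397-88471646 on the minus strand.
Pcdh17: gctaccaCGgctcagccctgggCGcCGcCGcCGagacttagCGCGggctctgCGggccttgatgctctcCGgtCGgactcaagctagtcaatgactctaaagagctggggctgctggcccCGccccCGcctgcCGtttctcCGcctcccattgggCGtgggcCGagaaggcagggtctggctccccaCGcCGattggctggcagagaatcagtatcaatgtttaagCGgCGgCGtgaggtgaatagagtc
Pcdh20: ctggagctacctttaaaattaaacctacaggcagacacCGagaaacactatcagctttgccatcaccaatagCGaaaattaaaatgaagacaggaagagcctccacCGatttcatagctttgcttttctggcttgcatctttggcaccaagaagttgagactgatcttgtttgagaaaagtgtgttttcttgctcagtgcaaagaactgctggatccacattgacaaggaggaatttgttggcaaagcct
The Pcdh17 window has 21 CG and 64.8% G or C, the Pcdh20 window 3 CG and 42.4%, beside medians of 6 CG and 52% over all 27025 windows of 250 bases. The 13 windows of tested members had a median of 16 CG. Among called members, the risen Pcdh7 and Cdh18 had 7 and 8 CG and the fallen Cdh10 had 2. Uncalled Pcdh10 and Pcdh18 had 22 and 23. Unlike those of Pcdh17, Pcdh20 and Pcdh10, the windows of Pcdh7, Cdh18, Cdh10 and Pcdh18 lay partly or wholly inside the annotated gene. That of Cdh18 began at 23036213, within a gene that spans 22549022 to 23474418. Their CG counts are therefore not like for like. The pair was picked by its opposite differences and counting CG was chosen after the values were seen, so these counts are a description. A link between CG and direction was not tested.

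The E-box CAGGTG or its reverse complement CACCTG, which Snail and ZEB factors bind, was searched on both strands. Of all windows 17.1% held it, as did 2 of the 22 member windows outside chromosome 18 (Cdh7 and Pcdh15, both below the filter). None of the 13 windows of tested members did. A window without these letters says nothing about binding elsewhere.

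The remaining delta-2 genes did not pass. Pcdh10 was near constant in the rRNA-depleted libraries at 5.24, 5.09 and 5.30 TPM and went from 1.86 through 3.79 to 8.53 TPM in the poly(A) libraries. Pcdh18 was at 42.2, 40.1 and 57.1 TPM and at 30.4, 22.1 and 42.1 TPM, highest at PD14 in both methods (0.44 ± 0.16, adjusted p = 0.136). Pcdh19, whose protein acts in a complex with N-cadherin, was at 35.6, 26.3 and 28.2 TPM and at 42.3, 34.7 and 28.3 TPM (-0.44 ± 0.16, adjusted p = 0.130). Pcdh8 reached 0.847 TPM and Pcdh12, of endothelium, 0.101 TPM. Pcdh15 was highest in the 2 PD2 libraries, at 0.598 and 0.741 TPM, and no higher than 0.106 TPM later.

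**Figure D3:**
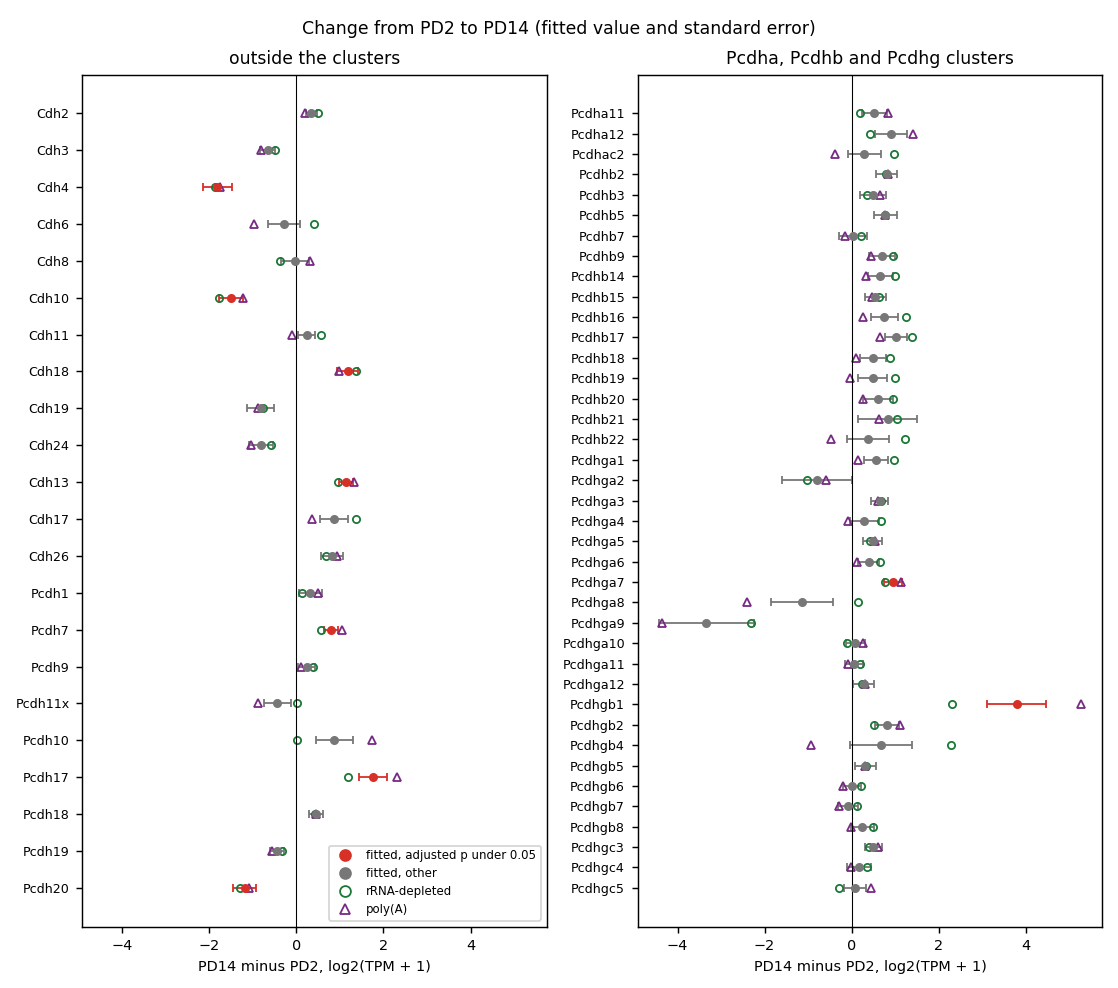
Fitted PD14 minus PD2 difference on log2(TPM + 1) with its standard error for the 61 tested members, red where the adjusted p was under 0.05, with the difference within rRNA-depleted (open circles) and within poly(A) libraries (open triangles). Outside the clusters 7 of 22 genes passed, 4 of them higher and 2 of the lower 3 (Cdh4 and Pcdh20) filtered in through PD2 alone. In the clusters 2 of 39 passed, both higher. Over all genes tested, 11.2% passed, 6.41% higher and 4.77% lower.

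Clustered genes were measured with an overlap that limits single values. In GENCODE M21, all 22 Pcdhg genes shared exonic bases with other genes, mostly of the cluster (median 44.7% of a gene's exonic bases). So did the 12 Pcdha genes that could be placed, while 2 of 22 Pcdhb genes did. The Pcdhg genes also shared bases with Gm37013, Gm37388, Gm38182 and Gm42416, which are not members. Pcdha4, Pcdha6 and Pcdha7 shared bases with some of these. Reads from the shared constant exons cannot be given to a single Pcdha or Pcdhg gene, so their single values are uncertain and the sums over a cluster are given first. Reads given to the overlapping genes outside the member rule would be missing from these sums, so the sums are uncertain too. The Pcdha genes span chromosome 18 from 36930184 to 37187661, Pcdhb from 37264938 to 37524479 and Pcdhg from 37661793 to 37841873.

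Summed TPM of the Pcdhg cluster was 404, 423 and 523 after rRNA depletion and 234, 337 and 359 after poly(A) enrichment, higher at each step in both. The PD14 sum was 1.30 and 1.53 times the PD2 sum. The Pcdhb sum was 41.4, 54.7 and 97.0 and then 27.5, 39.2 and 37.5, or 2.34 and 1.36 times the PD2 sum at PD14. That of Pcdha was 8.30, 23.8 and 16.7 and then 4.30, 8.29 and 8.83, or 2.01 and 2.06 times. A comparison of 2 with 2 libraries cannot reach an exact permutation p under 1 in 3, so these sums are a description.

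By direction, 31 of the 56 clustered genes above 0 were higher at PD14 than at PD2 in both methods and 2 were lower, beside 33.3% and 27.4% of all genes above 0. The Pcdhb cluster, where exons are hardly shared, had 14 of 21 higher and 0 lower. Some of these genes were below the filter, with low values. Among the 39 tested clustered genes, 23 were higher and 2 lower, beside 5172 and 4109 of the 13332 genes tested. Among the 14 tested Pcdhb genes, 11 were higher and 0 lower. In that cluster 0 of 14 tested genes passed, beside 11.2% of all genes tested. At an unadjusted p under 0.05 by limma there were 3 of the 14, beside 32% of all genes tested. Pcdhb17, its most abundant gene, was at 5.45, 11.1 and 15.8 TPM and at 5.04, 6.81 and 8.47 TPM (1.02 ± 0.26, adjusted p = 0.0643). Pcdhb16 was at 4.44, 7.01 and 11.8 TPM and at 2.54, 3.09 and 3.25 TPM. Pcdhb22 went from 5.40 to 13.9 TPM in one method and from 3.87 to 2.52 TPM in the other.

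**Figure D4:**
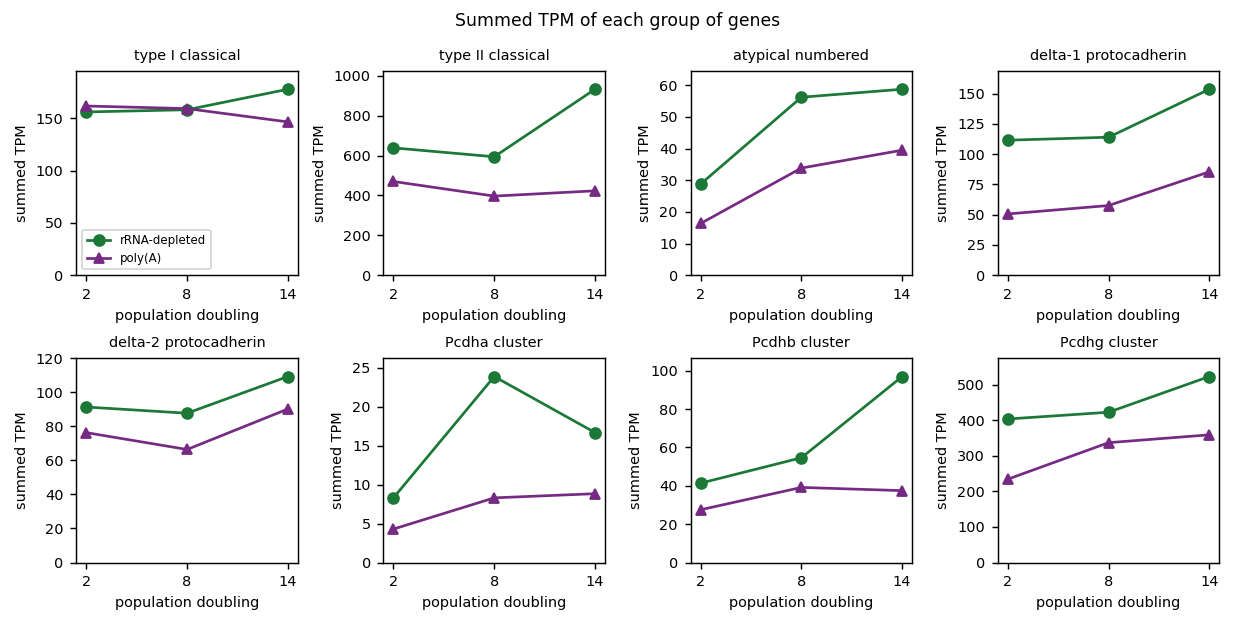
Summed TPM (vertical axes from 0, each panel its own scale) of 8 groups of members against population doubling, 1 point per library, circles for rRNA-depleted and triangles for poly(A). The atypical, delta-1, delta-2, Pcdha, Pcdhb and Pcdhg sums are higher at PD14 than at PD2 in both methods. The type I and type II sums are higher at PD14 in the rRNA-depleted and lower in the poly(A) libraries.

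In the Pcdha cluster 3 of 13 genes passed the filter and 0 the test (0 also at an unadjusted p under 0.05 by limma, beside 32% of all genes tested). Pcdhac2, one of the C-type genes, whose variable exons resemble each other across the clusters, was at 4.73, 18.1 and 10.2 TPM and at 2.02, 4.08 and 1.32 TPM, with its peak at PD8 in both methods. Pcdha11 was at 1.84, 1.50 and 2.23 TPM and at 1.02, 1.09 and 2.62 TPM. Pcdha12 was at 0.500, 1.56 and 0.995 TPM and at 0.221, 0.943 and 2.22 TPM. Pcdha1, Pcdha4, Pcdhb4 and Pcdhb13 reached 1 TPM in a single library each, at 1.89, 1.09, 1.03 and 1.37 TPM.

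All 22 Pcdhg genes passed the filter, and 2 passed the test (9.09%, beside 11.2% of all genes tested). Pcdhgb1 was at 9.24, 42.2 and 49.3 TPM and at 4.17, 75.8 and 199 TPM. All 4 later libraries lay above both PD2 libraries, and its change of 3.79 ± 0.67 (adjusted p = 0.0340) was 5.34-fold in the rRNA-depleted and 47.7-fold in the poly(A) libraries. Pcdhga7 was at 18.1, 25.0 and 31.4 TPM and at 7.43, 16.4 and 17.5 TPM, higher at each step in both (0.95 ± 0.21, adjusted p = 0.0485).

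Within the cluster the leading gene changed from library to library. Pcdhga9 led at PD2 in both methods and in the poly(A) PD8 library, with 106, 17.7 and 20.6 TPM and 81.9, 106 and 3.04 TPM. Its PD14 difference of -3.34 ± 1.09 did not pass (adjusted p = 0.109). Pcdhgb4 led the rRNA-depleted PD14 library, with 26.4, 43.7 and 132 TPM, but was at 22.4, 10.2 and 11.3 TPM in the poly(A) libraries. In the poly(A) PD14 library Pcdhgb1 alone held 55.4% of the cluster's TPM.

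The 5 genes with the widest spread between libraries (Pcdhga8, Pcdhgb1, Pcdhga9, Pcdhgb4 and Pcdhga2, chosen after their values were seen) differed 8.51-fold to 55.1-fold between their highest and lowest library. The other 17 differed 1.99-fold to 7.32-fold. Summed over those 17, TPM was 219, 233 and 292 in the rRNA-depleted and 92.2, 130.3 and 127 in the poly(A) libraries. The named 5 held 44.1% to 45.9% of the cluster in the rRNA-depleted and 60.7% to 64.6% in the poly(A) libraries.

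**Figure D5:**
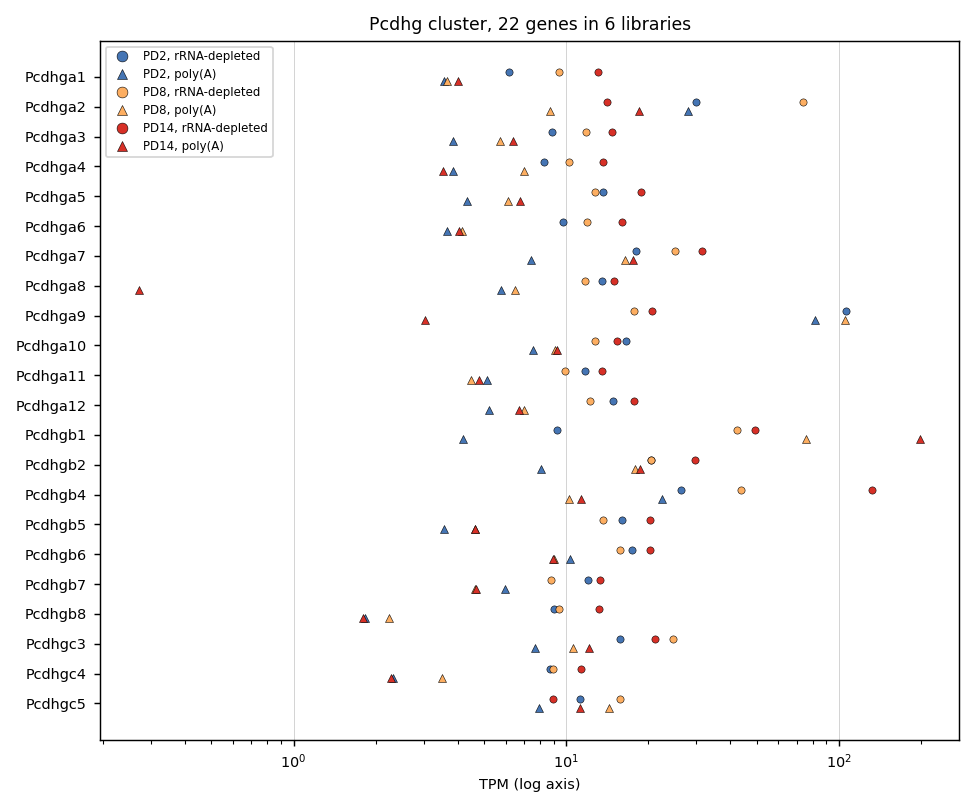
TPM (log axis) of the 22 Pcdhg genes, 1 marker per library: circles for rRNA-depleted, triangles for poly(A), coloured by population doubling. Pcdhga8, Pcdhgb1, Pcdhga9, Pcdhgb4 and Pcdhga2 are spread by 8.51-fold or more between libraries, and for 18 of 22 genes every circle lies to the right of every triangle.

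The single steps gave no calls. At PD8 against PD2, limma called 0 members and 3 genes in all, 0.0225% of those tested. At an unadjusted p under 0.05 there were 13 members (21.3%) beside 20.3% of all genes. At PD14 against PD8 it called 0 members (4 unadjusted, 6.56%, beside 5.6% of all genes) and 0% of all genes. The limma F test across PD2, PD8 and PD14 called 0 members (15 unadjusted, 24.6%, beside 24.2%) and 1.46% of all genes. The difference of the late from the early step called 0 members (8 unadjusted, 13.1%, beside 4.25%) and 0% of all genes. PD8 against PD2 and PD14 against PD2 share the PD2 libraries.

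By direction over the 91 members above 0, 35 were higher at PD8 than at PD2 in both methods and 26 lower, beside 32% and 28.4% of all genes above 0. From PD8 to PD14, 47 were higher in both methods and 4 lower, beside 24.9% and 21.5%. Of the 47, 31 were clustered genes, many of which share exons and so are not independent of each other, and 16 were among the 35 members outside the clusters. The same count for PD14 against PD2 was 45 higher and 15 lower, beside 33.3% and 27.4% of all genes above 0. These counts include members below the filter, whose values are low. Among the 61 tested members, 34 were higher at PD14 than at PD2 and 9 lower, beside 5172 and 4109 of the 13332 genes tested. No p is attached to these counts.

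Between library methods 30 of the 61 tested members passed. Of these 29 were higher in the rRNA-depleted libraries and 1, Cdh10, was lower, beside 37.3% of all genes tested, 20.9% higher and 16.4% lower. The median difference between methods was 0.76 over the members and 0.04 over all genes tested. Pcdhgb8, annotated as a polymorphic pseudogene, was higher by 1.95 ± 0.21 (adjusted p = 0.00611), Pcdhgb5 by 1.73 ± 0.19 (adjusted p = 0.00613), Pcdh11x by 1.61 ± 0.25 (adjusted p = 0.0103), Pcdh9 by 1.29 ± 0.16 (adjusted p = 0.00713) and Cdh11 by 0.76 (adjusted p = 0.0211). Cdh10 was lower by a log2 of -1.90 ± 0.22 (adjusted p = 0.00665). The 19 clustered genes that passed were all higher in the rRNA-depleted libraries. Beside Pcdhgb8 and Pcdhgb5 they were Pcdhac2, Pcdhb16, Pcdhb18, Pcdhb19, Pcdhga1, Pcdhga3, Pcdhga4, Pcdhga5, Pcdhga6, Pcdhga7, Pcdhga10, Pcdhga11, Pcdhga12, Pcdhgb6, Pcdhgb7, Pcdhgc3 and Pcdhgc4, by log2 values from 0.72 to 1.70. In the Pcdhg cluster 15 of 22 genes passed, and for 18 of 22 all 3 rRNA-depleted libraries lay above all 3 poly(A) libraries, beside 20.4% of genes above 0. Method calls fell to 3 without PD8 replicate 1 and to 2 without PD8 replicate 2, and to 14 and 15 without the PD14 libraries.

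Genes of the same pathway were counted from lists. Over all genes tested, 11.2% passed between PD2 and PD14, 6.41% higher and 4.77% lower. The share was 3.33% for catenins and junction partners, 15.4% for transcription factors and 8% for promoter regulators. It was 16.7% for superfamily genes and 15% for signalling partners. Among 30 tested catenins and junction partners, 0 rose and 1 fell between PD2 and PD14 (median -0.01), the one being Afdn, afadin, which links nectins to actin (-0.92 ± 0.12, adjusted p = 0.0223). Ctnnb1, beta-catenin, was at 580.2, 403 and 449.5 TPM and at 405, 488 and 529 TPM. Ctnna1, alpha-catenin, went from 254 to 199.3 TPM and from 298 to 243 TPM, and Jup, plakoglobin, from 46.5 to 24.5 TPM and from 81.0 to 60.4 TPM (-0.66 ± 0.16, adjusted p = 0.0613). Ctnnd1, p120-catenin, which keeps cadherins at the surface, differed by 0.38 ± 0.12 (adjusted p = 0.101).

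Of 13 tested transcription factors listed for epithelial-mesenchymal transition and cadherin switching, 2 rose and 0 fell (median 0.03). Snai1, at 49.3, 93.8 and 103 TPM and at 46.4, 87.7 and 102 TPM, rose by 1.08 ± 0.12 (adjusted p = 0.0183). Twist1, at 96.8, 126 and 158 TPM and at 111, 153 and 188 TPM, rose by 0.73 ± 0.11 (adjusted p = 0.0276). Both were alike in the 2 methods. Snai2 (0.67, adjusted p = 0.172), Zeb1 (0.30, adjusted p = 0.462) and Zeb2 (0.55, adjusted p = 0.146) did not pass. Of the 13, 7 were fitted higher at PD14 and 6 lower. Twist2, which passed between library methods, was lower at PD14 than at PD2 in both methods but did not pass there (-1.11 ± 0.33, adjusted p = 0.0881).

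Of 25 regulators of clustered protocadherin promoters, 0 rose and 2 fell (median -0.22). They were Rad21, the cohesin subunit (-0.63 ± 0.11, adjusted p = 0.0344), and the maintenance DNA methyltransferase Dnmt1 (-1.11 ± 0.15, adjusted p = 0.0230). All 5 proliferation markers fell over the same span, and their part in the Dnmt1 and Rad21 values was not tested. Of 12 tested superfamily genes outside the rule, 2 rose and 0 fell (median 0.07). Fat4, a giant cadherin of planar polarity, was at 159.6, 445 and 615 TPM in the rRNA-depleted and at 23.2, 52.5 and 39.6 TPM in the poly(A) libraries (1.34 ± 0.29, adjusted p = 0.0485). Clstn1, calsyntenin, rose by 1.11 ± 0.13 (adjusted p = 0.0199). Of 20 tested signalling partners of protocadherins, Ptk2b (0.87 ± 0.18, adjusted p = 0.0432) and Marcks (1.06 ± 0.13, adjusted p = 0.0206) rose and the Src-family kinase Fyn fell (-0.88 ± 0.16, adjusted p = 0.0370), with a median of -0.22.

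The calls of these list genes also depended on single libraries. Rad21 was called in 0 of 6 leave-one-out fits, Fat4 in 1 (without PD2 replicate 2), Ptk2b in 1 (without PD2 replicate 1) and Fyn in 1 (without PD2 replicate 2). Afdn, Snai1, Twist1, Dnmt1, Clstn1 and Marcks were called in 2 each, without either PD2 library. Over the 8 other settings Fat4 and Ptk2b were called in 3, Rad21 and Fyn in 5, Twist1 in 6 and the rest in 7.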

How the data were processed

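The authors deposited TPM per gene and library in a single table. Per the submitters' processing notes, bcl2fastq, cutadapt 1.14, HISAT2 2.0.5, StringTie 1.3.1c and mm10 were used. Their roles and the gene annotation are not given in the sources used here. The deposited TPM summed to 1000000 in each poly(A) library and to 937922, 950531 and 937217 in the rRNA-depleted libraries at PD2, PD8 and PD14. Depth cannot be read from TPM, so no counting error is given.

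From the TPM, log2(TPM + 1) was fitted in R 4.3.3 with limma 3.58.1 (trend, prior degrees of freedom 3.22) over 13332 of 21988 genes, with group and library method as additive terms. Same-method libraries deviated together, at correlations of 0.75 (PD2 and PD8), 0.66 (PD2 and PD14) and 0.85 (PD8 and PD14), which the labels' library methods define. Benjamini-Hochberg adjustment covered all genes tested. The fit was tested on simulated data. Tables and plots were made in Python 3.11.15 with pandas 2.3.3 and matplotlib 3.10.9.

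Positions and exon overlaps came from GENCODE M21, in which 91 of the 92 symbols matched a single gene, and promoter windows from RefSeq (GRCm38.p6), available for 22 members outside chromosome 18. Members, lists and alternatives were chosen with earlier results of these data known. Named were all tested members outside the clusters, clustered genes called in any comparison or among the 3 most abundant of a cluster, members below the filter that were at 0 or reached 1 TPM in a single library, called list genes and a panel of list genes. Outside this rule, Pcdhga8, Pcdhga2 and Pcdhb9, and the members below the filter Cdh1, Cdh5, Cdh7, Cdh15, Cdh16, Cdh23, Pcdh8, Pcdh12 and Pcdh15, were added after their values were seen. Alternatives were other pseudocounts, filters, scalings, no trend, no block and leaving out each library.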

Additional observations from a re-analysis of the deposited data

Results flagged for a closer look

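Pcdhgb4 moved in opposite directions in the library methods. From PD2 to PD14 its log2(TPM + 1) differed by 2.28 in the rRNA-depleted libraries and by -0.93 in the poly(A) libraries. The difference between methods was not tested, since each method had 1 library per group.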

How the results depend on the processing

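Between PD2 and PD14, 9 members passed in the main analysis, 2 without the filter on TPM and 0 with no replicate block, and 0 to 6 with a library left out. The other 6 settings gave 6 to 9 calls. For PD8 against PD2, 0 to 2 members were called with a library left out, and for any change 0 to 4. PD14 against PD8 and the late minus early step gave 0 in every setting and every leave-one-out fit. Method calls numbered 30, 23 to 31 over the settings and 2 to 32 with a library left out. The cause of these shifts was not tested, but each left-out library removed residual degrees of freedom. Leaving out a library reversed the PD14 difference of Cdh6 (-0.89 to 0.31), Cdh11 (-0.06 to 0.54), Pcdh11x (-0.87 to 0.01), Pcdhac2 (-0.29 to 0.87), Pcdhb22 (-0.48 to 1.22), Pcdhgb4 (-0.57 to 1.92, called without PD2 replicate 2), Ctnnb1 (-0.38 to 0.39) and Zeb1 (-0.02 to 0.62). Without PD2 replicate 2, Pcdhb17 (1.33) and Snai2 (1.14) also passed. Cdh8 was at 0.05 with a pseudocount of 0.1, and Ctnnb1 at -0.02 with quantile normalization. Cdh4 and Pcdh20 did not pass the filter in 2 of the 6 leave-one-out fits, and gave no value there.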
